A study of Arabidopsis thaliana with 6 samples.

Results

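The thalianol and marneral clusters are groups of neighbouring genes on chromosome 5 of Arabidopsis thaliana that make root triterpenes. They were taken as 7 gene IDs out of 32548 in the deposited expression table, and all 7 passed the filter on low values that left 23898 genes for testing. The thalianol cluster was represented by THAS1 (AT5G48010), THAH (AT5G48000), THAD (AT5G47990) and AT5G47980, and the marneral cluster by MRN1 (AT5G42600), CYP71A16 (AT5G42590) and CYP705A12 (AT5G42580). RNA-seq was run on seedlings 12 days old from 3 genotypes, with 2 libraries each, namely the wild type Col-0, the double mutant hac1-/-hac5-/- (hac1hac5) and the double mutant med8-/-med25-/- (med8med25). All grew on MS medium at 22 °C in a cycle of 16 h light and 8 h dark, with no treatment named. HAC1 and HAC5 are histone acetyltransferases related to CBP and p300, and MED8 and MED25 belong to Mediator, which relays signals from transcription factors to RNA polymerase II. The labels give neither the mutant alleles nor whether the libraries of a genotype came from separate plants, so errors here cover the spread between these libraries, which may be technical.

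Plant triterpenes begin with an oxidosqualene cyclase, an enzyme that folds the linear precursor 2,3-oxidosqualene into a ringed skeleton, which cytochrome P450 enzymes and acyltransferases then decorate. In Arabidopsis the genes of the thalianol and marneral routes lie side by side, are transcribed mainly in roots, and are known to carry the Polycomb mark H3K27me3 where they are silent. THAS1 is the cyclase that makes thalianol, THAH (CYP708A2) hydroxylates it, and THAD (CYP705A5) introduces a double bond into the resulting diol. AT5G47980 is annotated as an acyltransferase of the HXXXD type. MRN1 is the cyclase that makes marneral, CYP71A16 is the marneral oxidase, and CYP705A12 is a P450 of the same family as THAD.

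In the TAIR10.1 annotation of RefSeq the thalianol genes span 32.8 kb at chr5:19428888-19461706, in the order AT5G47980, THAD, THAH and THAS1. THAH lies on the minus strand and the other 3 on the plus strand, so THAH and THAS1 point away from each other across 8.97 kb. The marneral genes span 34.7 kb at chr5:17023502-17058245, with CYP705A12 and CYP71A16 on the minus strand and MRN1 on the plus strand, and 19.65 kb lie between CYP71A16 and MRN1. Both cyclase genes have 14 exons, while AT5G47980 has 1, THAD and CYP705A12 have 2, CYP71A16 has 4 and THAH has 9. No exon of the 7 genes overlaps another annotated gene. Every exon window of 50 bases, the length of the reads, occurred once in the genome for 6 of the genes, and 57 of 1774 windows of THAH occurred more than once.

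The 250 bases before the annotated starts of 5 genes are shown because genes of the same cluster differed from each other in direction. They were read from RefSeq TAIR10.1, 5′ to 3′ on the strand of the gene, and capitals mark the letters TATAAA on either strand. The first 3 belong to the thalianol cluster (THAS1 chr5:19456587-19456836, plus strand; THAH chr5:19447867-19448116, minus strand; THAD chr5:19434508-19434757, plus strand). The last 2 belong to the marneral cluster (MRN1 chr5:17053203-17053452, plus strand; CYP705A12 chr5:17025362-17025611, minus strand).
THAS1: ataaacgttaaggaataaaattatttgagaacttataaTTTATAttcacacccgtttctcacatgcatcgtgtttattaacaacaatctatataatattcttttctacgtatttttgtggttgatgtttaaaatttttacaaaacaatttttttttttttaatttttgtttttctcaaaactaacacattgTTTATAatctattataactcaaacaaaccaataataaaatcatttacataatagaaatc
THAH: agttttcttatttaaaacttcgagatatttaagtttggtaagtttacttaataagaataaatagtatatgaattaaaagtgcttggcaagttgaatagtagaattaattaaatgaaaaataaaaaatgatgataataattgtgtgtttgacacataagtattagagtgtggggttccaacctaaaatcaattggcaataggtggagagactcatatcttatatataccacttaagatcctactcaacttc
THAD: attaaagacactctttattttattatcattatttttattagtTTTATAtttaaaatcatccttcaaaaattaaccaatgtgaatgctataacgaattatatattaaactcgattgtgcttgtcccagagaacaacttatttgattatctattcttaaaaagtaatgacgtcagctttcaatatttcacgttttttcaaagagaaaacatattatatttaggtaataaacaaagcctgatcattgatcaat
MRN1: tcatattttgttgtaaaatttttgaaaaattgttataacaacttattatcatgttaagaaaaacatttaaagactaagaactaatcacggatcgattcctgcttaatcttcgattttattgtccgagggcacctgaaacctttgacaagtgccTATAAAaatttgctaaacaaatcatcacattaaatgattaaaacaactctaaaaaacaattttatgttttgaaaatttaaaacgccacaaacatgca
CYP705A12: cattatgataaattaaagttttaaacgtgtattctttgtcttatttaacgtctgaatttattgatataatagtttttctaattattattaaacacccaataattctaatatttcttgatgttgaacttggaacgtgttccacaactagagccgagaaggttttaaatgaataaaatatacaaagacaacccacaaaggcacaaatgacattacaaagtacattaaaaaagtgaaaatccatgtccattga

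The letters TATAAA on either strand were in the windows of 5 of the 7 genes and in 47.3% of 27443 promoter windows of the same length. THAH and CYP705A12 had no match in these letters. In MRN1 the match lay 97 to 92 bases before the start on the strand of the gene, and in AT5G47980 it lay 31 to 26 bases before it. In THAS1 and THAD all matches were on the opposite strand. CACGTG (the G-box), GCCGCC (the core of the GCC box), AAACCCTA (the telobox) and GAGAGAGA were searched on both strands and were in none of the 7 windows, against 6.49%, 1.87%, 4.49% and 4.91% of all windows. The windows were rich in A and T, with G and C at 20.8% in THAS1 as the lowest and 31.6% in CYP71A16 as the highest of the 7, where the median over all windows was 31.2%.

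The deposited values are normalized counts, that is, read counts adjusted by the authors to a common library size. They summed to 30.3 to 35.5 M per library, and the reads behind them were estimated at 24.9 to 36.8 M, with the first med8med25 library the shallowest. The 7 genes had between 77 estimated reads (AT5G47980, second Col-0 library) and 2235 (THAD, second hac1hac5 library). Of the targeted genes, MED8 and MED25 fell in med8med25 (log2 differences -1.43 and -2.15, adjusted p = 2.0e-05 and 1.4e-05). HAC1 fell in hac1hac5 (-0.41, adjusted p = 0.011), a call that did not hold when either Col-0 library (-0.44 and -0.38) or the first hac1hac5 library (-0.27) was left out, nor with total-count scaling (-0.23). HAC5 stood at -0.38 and was not called (adjusted p = 0.05), but was called lower in 7 of 14 alternative settings (-0.60 without the second hac1hac5 library), so transcript levels are only a partial check of that genotype. Seedlings were not divided into organs, so fewer root cells and less RNA per root cell cannot be told apart in any value below.

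In Col-0 the P450 gene THAD had the highest level per length of the 7 genes, with 953 ± 84.2 normalized counts per kb of exon (SD, n = 2). THAH followed with 478 ± 46.4, THAS1 with 451 ± 43.0 and MRN1 with 429 ± 128 per kb, and these 3 lay within the spread of their libraries. CYP71A16 had 318 ± 45.3 and CYP705A12 255 ± 66.0 per kb, which also overlapped, and AT5G47980 was the weakest with 56.6 ± 8.12 (SD, n = 2).

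The order of levels per kb was different in the mutants, except at its ends. THAD remained highest, at 974 ± 47.6 per kb in hac1hac5 and 1050 ± 6.06 in med8med25, with n = 2 for each SD. AT5G47980 was lowest, at 62.3 and 90.7 per kb in the hac1hac5 libraries and 75.3 and 96.4 in those of med8med25. In med8med25 the second place went to CYP705A12 with 488 ± 16.1 per kb, ahead of CYP71A16 with 358 ± 2.65 and MRN1 with 284 ± 4.19. THAS1 with 173 ± 16.7 and THAH with 165 ± 3.77 per kb were then next to last and did not differ beyond their spread. Ranked among all tested genes per kb, THAS1 exceeded 70.4% and 67.2% of them with the wild type and 46.4% and 48.5% with med8med25. THAD exceeded between 83.1% and 86.5% in all 6 libraries.

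The cyclase gene and the hydroxylase gene of the thalianol cluster were lower in both mutants, and lowest in med8med25. THAS1 had 1278 and 1116 normalized counts in the wild-type libraries, against 696.7 and 736.4 with hac1hac5 and 428.2 and 491.0 with med8med25. Each mutant lay below both Col-0 libraries and med8med25 below hac1hac5, with no overlap between any of the genotypes. The difference from Col-0 was -0.74 on the log2 scale in hac1hac5 (SE 0.10, 1.67-fold lower) and -1.38 in med8med25 (SE 0.10, 2.60-fold lower).

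THAH had 1132 and 986.6 normalized counts in the wild-type libraries, against 779.7 and 831.2 with hac1hac5 and 359.8 and 371.6 with med8med25. Again the genotypes did not overlap, and their order was that of THAS1. For THAH the log2 difference from Col-0 was -0.39 in hac1hac5 (SE 0.09, 1.31-fold lower) and -1.53 in med8med25 (SE 0.09, 2.88-fold lower). Of the pair, THAS1 was thus the more reduced in hac1hac5, and THAH by a small margin in med8med25.

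The desaturase gene and the acyltransferase gene of the same cluster were not lower in either mutant. THAD had 1934 and 1707 normalized counts in the wild-type libraries, against 1796 and 1925 with hac1hac5 and 1997 and 2014 with med8med25. Its hac1hac5 libraries lay within the range of Col-0, and its med8med25 libraries just above that range. The log2 difference of THAD from Col-0 was 0.03 in hac1hac5 and 0.14 in med8med25 (SE 0.08 for both).

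AT5G47980 had 101.6 and 82.85 normalized counts in the wild-type libraries, against 147.8 and 101.6 with hac1hac5 and 157.2 and 122.7 with med8med25. The lower hac1hac5 library was level with the higher Col-0 library, and the med8med25 libraries were above both Col-0 libraries. Its log2 differences of 0.41 and 0.59 had the widest error of the 7 genes (SE 0.23 for both).

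**Figure D1:**
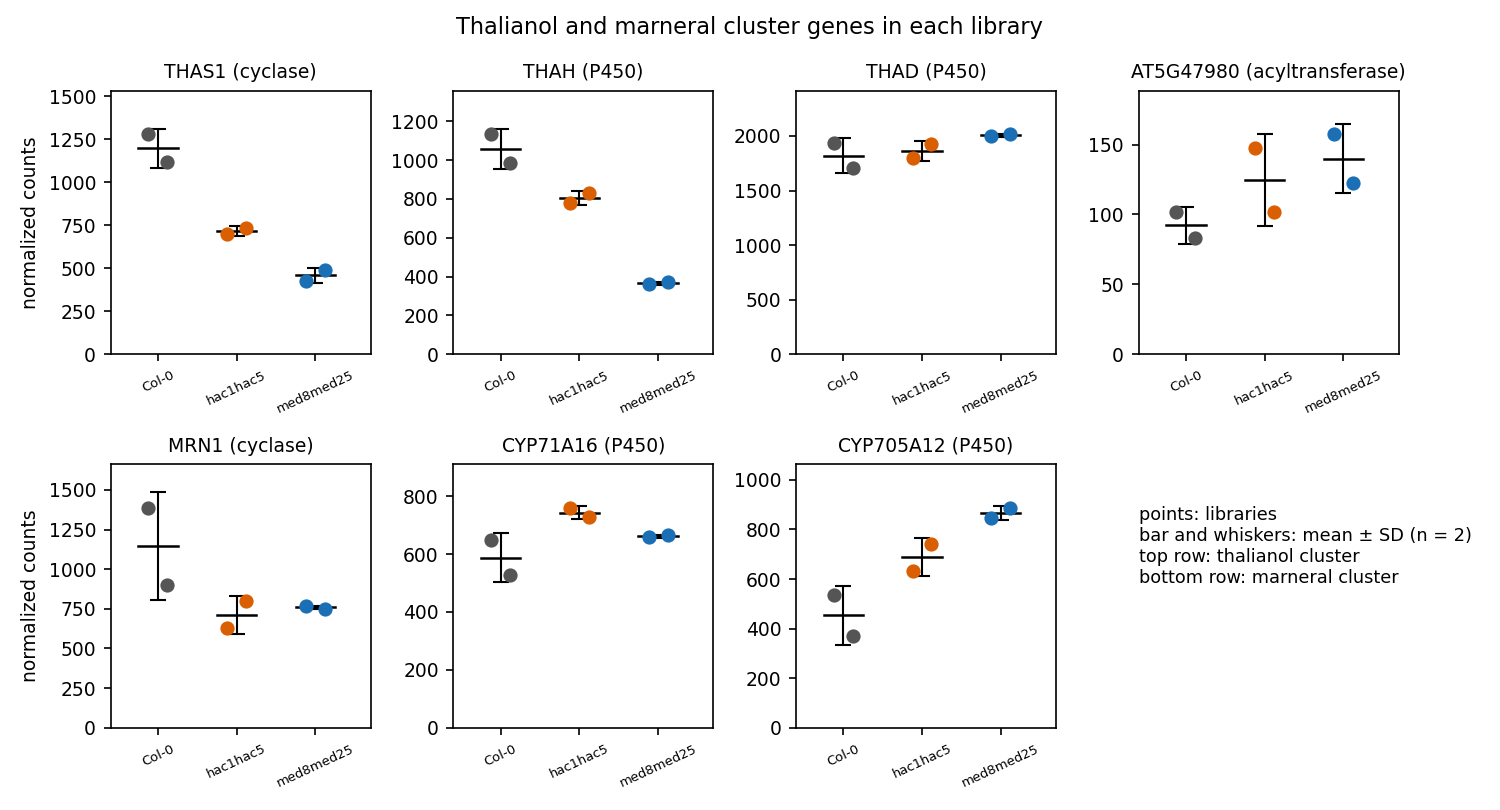
Normalized counts (y axis, from 0) of the 7 genes in each library, grouped by genotype on the x axis; points are libraries, and bars with whiskers are the mean ± SD of 2 libraries. THAS1 and THAH step down from Col-0 to hac1hac5 to med8med25, THAD stays between 1707 and 2014, and CYP705A12 steps up from 369.9 and 535.8 in Col-0 to 846.5 and 886.8 in med8med25.

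In hac1hac5 the cyclase gene of the marneral cluster was lower and its P450 genes were higher, and in med8med25 CYP705A12 was higher, while MRN1 and CYP71A16 were not called there. MRN1 had 1386 and 902.5 normalized counts in the wild-type libraries, against 627.6 and 797.5 with hac1hac5 and 766.5 and 750.7 with med8med25. All 4 mutant libraries were below both Col-0 libraries, but the Col-0 libraries themselves lay far apart, and the mutants overlapped each other. The log2 difference of MRN1 was -0.66 in hac1hac5 and -0.56 in med8med25 (SE 0.19 for both).

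CYP705A12 had 535.8 and 369.9 normalized counts in the wild-type libraries, against 633.2 and 742.9 with hac1hac5 and 846.5 and 886.8 with med8med25. The genotypes did not overlap, and med8med25 was highest, the reverse of the order seen for THAS1 and THAH. Unlike those genes, CYP705A12 was not called between the mutants (log2 difference 0.34, SE 0.16). The log2 difference from Col-0 was 0.62 in hac1hac5 (SE 0.16, 1.54-fold higher) and 0.96 in med8med25 (SE 0.16, 1.94-fold higher).

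CYP71A16 had 646.8 and 528.4 normalized counts in the wild-type libraries, against 759.3 and 727.4 with hac1hac5 and 658.4 and 665.3 with med8med25. Its mutant libraries were all above Col-0, in med8med25 by little. The log2 difference of CYP71A16 was 0.35 in hac1hac5 and 0.18 in med8med25 (SE 0.11 for both). For all 7 genes the second Col-0 library was lower than the first.

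**Figure D2:**
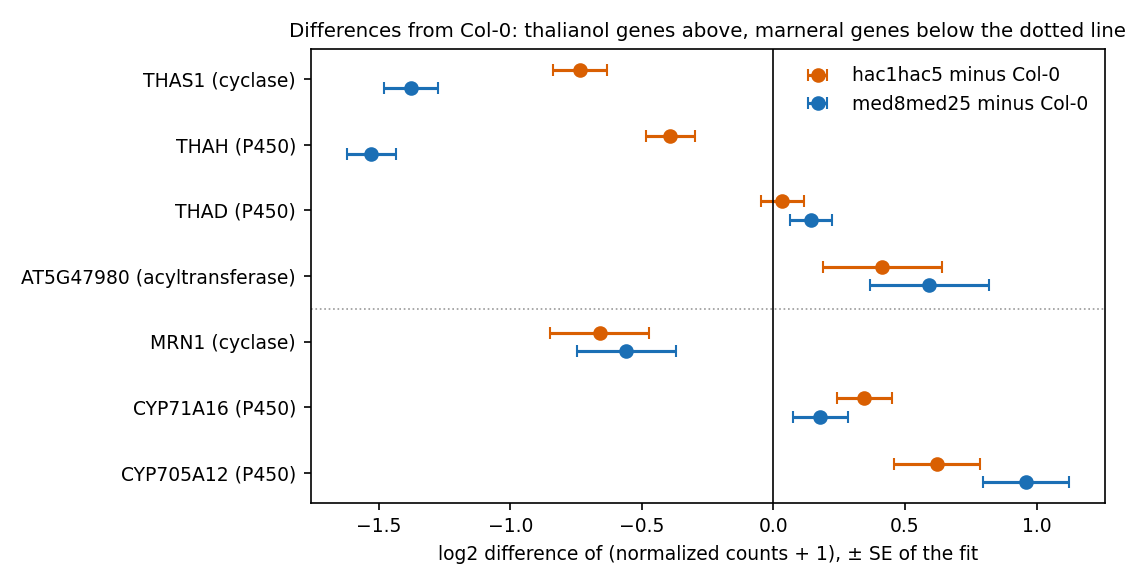
Log2 difference from Col-0 (x axis, on log2 of normalized counts + 1) of each gene (y axis) in hac1hac5 and med8med25; points are the fitted differences and whiskers the SE from the fit of 6 libraries. The cyclase genes THAS1 and MRN1 and the hydroxylase gene THAH lie left of 0 in both mutants, and CYP71A16, CYP705A12, AT5G47980 and THAD lie right of it.

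A common scale factor of a library cancels in a ratio of genes within it, and such ratios of the thalianol genes were close between the libraries of a genotype. Per kb of exon, THAS1 was 0.475 and 0.470 times THAD in the wild-type libraries, 0.279 and 0.275 times with hac1hac5, and 0.154 and 0.175 times with med8med25. THAH was 0.505 and 0.498 times THAD in the wild-type libraries, 0.374 and 0.372 times with hac1hac5, and 0.155 and 0.159 times with med8med25. Neither ratio overlapped between genotypes, so these genes differed unequally within their cluster. The ratio of THAH to THAS1 was 1.06 in both wild-type libraries, 1.34 and 1.35 with hac1hac5, and 1.01 and 0.908 with med8med25. It was thus highest in hac1hac5, where THAS1 was the more reduced of the pair. The weakly expressed AT5G47980 was 0.0615 and 0.0569 times THAD in the wild-type libraries, 0.0964 and 0.0619 times with hac1hac5, and 0.0922 and 0.0714 times with med8med25.

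The same was done for the marneral genes. MRN1 was 1.72 and 1.62 times CYP705A12 per kb in the wild-type libraries, 0.659 and 0.714 times with hac1hac5, and 0.603 and 0.563 times with med8med25. The Col-0 libraries, far apart in the level of MRN1, were close in this ratio, and every mutant library was below 1. Against CYP71A16, MRN1 stood at 1.48 and 1.18 in the wild-type libraries, 0.572 and 0.759 with hac1hac5, and 0.806 and 0.781 with med8med25. The ratio of CYP705A12 to CYP71A16 was 0.861 and 0.728 in the wild-type libraries, 0.867 and 1.06 with hac1hac5, and 1.34 and 1.39 with med8med25, so CYP705A12 overtook its neighbour in both med8med25 libraries.

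Summed per kb, the thalianol genes stood at 2067 and 1810 normalized counts in the wild-type libraries, 1645 and 1723 with hac1hac5, and 1466 and 1482 with med8med25. THAD made up 49.0% and 49.4% of that sum in the wild-type libraries, 57.2% and 58.5% with hac1hac5, and 71.3% and 71.1% with med8med25. The cluster sum was thus lower in the mutants while the share of THAD was larger. The marneral genes summed to 1171 and 832.5 per kb in the wild-type libraries and to between 1003 and 1141 in the 4 mutant libraries, which lie within the range of Col-0. Within that sum MRN1 made up 44.3% and 40.6% in the wild-type libraries and 23.4% to 26.9% in the mutant libraries.

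**Figure D3:**
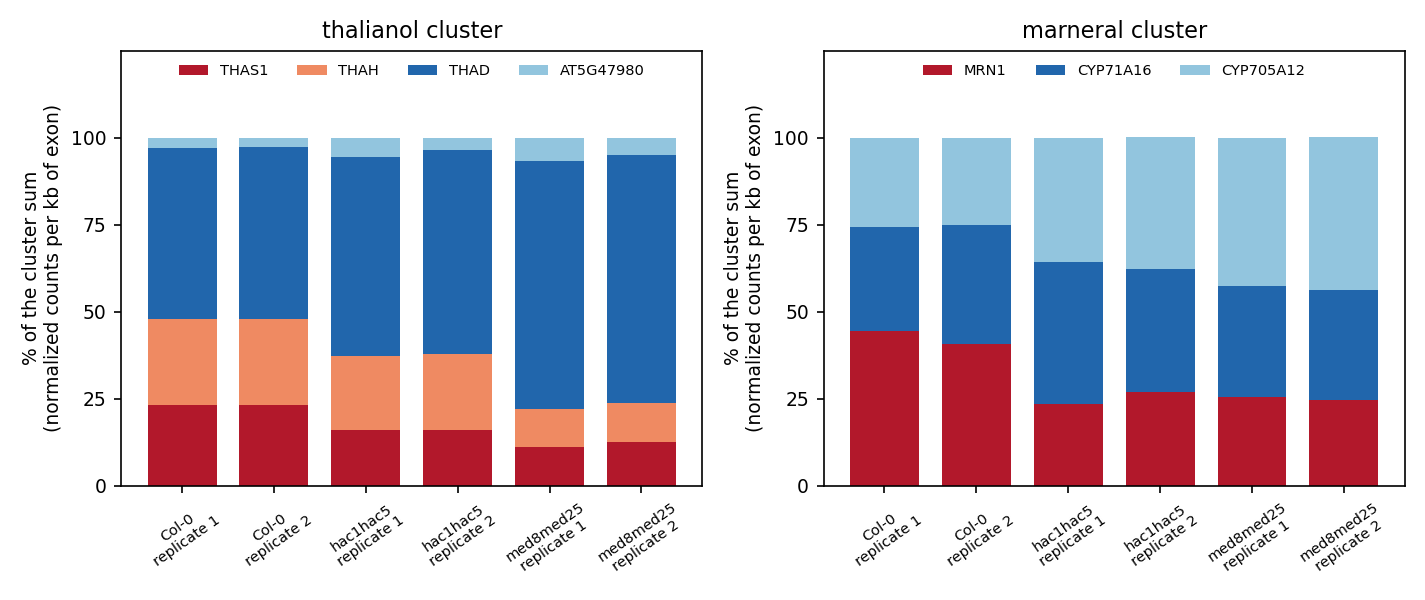
Share of each gene in the summed level of its cluster (y axis, percent of normalized counts per kb of exon) in each of the 6 libraries (x axis). In the thalianol cluster the share of THAD widens from 49.0% to 71.3% while THAS1 and THAH shrink, and in the marneral cluster MRN1 shrinks from 44.3% and 40.6% in Col-0 to between 23.4% and 26.9% in the mutants.

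The 7 genes were proposed with results of these contrasts known, so no p-value is given for any of them and nothing is read from their counts. In hac1hac5 against Col-0 limma called 5 of the 7 at an adjusted p under 0.05, where 38.4% of all tested genes were called. THAS1, THAH and MRN1 were called lower (21.0% of all tested genes) and CYP71A16 and CYP705A12 higher (17.4%). In med8med25 against Col-0 it called 3 of the 7, where 26.6% of all tested genes were called. THAS1 and THAH were called lower (14.3% of all tested genes) and CYP705A12 higher (12.3%). Libraries did not overlap between mutant and Col-0 for 6 of the 7 genes in hac1hac5 and for all 7 in med8med25, against 73.5% and 65.0% of all tested genes. The 6 include AT5G47980, whose nearest libraries of hac1hac5 and Col-0 are both 101.6 when rounded. The median log2 difference of the thalianol genes was -0.18 in hac1hac5 and -0.62 in med8med25, that of the marneral genes 0.35 and 0.18, and that of all tested genes -0.02 and 0.00. Members of a cluster differed in sign, so these medians describe no single gene.

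THAS1 in both mutants, and THAH and CYP705A12 in med8med25, were called under all 14 alternative settings. In hac1hac5 the call of THAH was lost when the first Col-0 library (log2 difference -0.29) or the first hac1hac5 library (-0.35) was left out, and with each library scaled to its total (-0.21). The call of MRN1 was lost in the same 3 settings (-0.35, -0.49 and -0.48). CYP71A16 was no longer called after leaving out the second Col-0 library (0.20), the first hac1hac5 library (0.31) or the second hac1hac5 library (0.38), and CYP705A12 after leaving out the second Col-0 library (0.36) or the second hac1hac5 library (0.51). In med8med25 MRN1 was called only when the second Col-0 library was left out (-0.87), and stood at -0.25 without the first. Scaling to totals moved all genes by a median of 0.18 in hac1hac5 and 0.158 in med8med25 on the log2 scale. With it THAD stood at 0.21 and 0.30 and was called higher in med8med25, as was AT5G47980 (0.75).

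The mutants were also compared with each other. THAS1 was lower in med8med25 than in hac1hac5 by a log2 difference of -0.64 (SE 0.10) and THAH by -1.14 (SE 0.09). Limma called these 2 of the 7 genes, both lower, where 41.4% of all tested genes were called, 20.5% lower and 20.9% higher. THAD differed by 0.11 (SE 0.08), AT5G47980 by 0.18 (SE 0.23), MRN1 by 0.10 (SE 0.19), CYP71A16 by -0.17 (SE 0.11) and CYP705A12 by 0.34 (SE 0.16), and none of these 5 was called. Libraries of the mutants did not overlap for 5 of the 7 genes, against 70.4% of all tested genes, and overlapped for AT5G47980 and MRN1.

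Genes next to the clusters were compared with the members. The neighbours were the 5 genes on each side of each cluster and those between its members, 23 in all, of which 16 were tested. In hac1hac5 4 of the 16 rose and 2 fell, and in med8med25 3 rose and 1 fell, with median log2 differences of -0.05 and 0.04. The share called over all tested genes was 38.4% in hac1hac5 and 26.6% in med8med25. The genes at the edges of the clusters differed among themselves. AT5G48020, directly beside THAS1, stood at -0.07 in hac1hac5 and -0.12 in med8med25 and was called in neither (adjusted p = 0.48 and 0.25), where THAS1 stood at -0.74 and -1.38. AT5G42620, the nearest tested gene beyond MRN1, stood at 0.00 and 0.06 (adjusted p = 0.97 and 0.55). On the opposite edges, AT5G42570 beside CYP705A12 rose in hac1hac5 (1.27, adjusted p = 1.9e-05) and stood at 0.13 in med8med25 (adjusted p = 0.32), and AT5G47970 beside AT5G47980 rose in hac1hac5 (0.49, adjusted p = 0.0043; not called without the second Col-0 library, 0.41) and stood at 0.02 in med8med25 (adjusted p = 0.89). GFA2, the next gene beyond AT5G48020, rose in both mutants (0.39 and 0.85, adjusted p = 0.0029 and 1.2e-04). The lncRNA genes between the members (AT5G07035 in the thalianol cluster, AT5G06325 and AT5G06335 in the marneral cluster) had 1.06 normalized counts or fewer in every library.

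On the other flank of the thalianol cluster lies AT5G47950, a further acyltransferase gene of the HXXXD type. It had 193.5 to 237.9 normalized counts in the wild type, 197.6 to 205.0 with hac1hac5 and 624.9 to 646.1 with med8med25. The gene rose in med8med25 (log2 difference 1.56, SE 0.12, adjusted p = 9.9e-05), where THAS1 and THAH were lowest, and was not called in hac1hac5 (-0.09, adjusted p = 0.6). RABA4C, a small GTPase gene between AT5G47950 and the cluster, rose in both mutants (2.01 and 1.44, adjusted p = 1.7e-04 and 0.0019), and shares 31.0% of its exon bases with AT5G47970, so that reads there cannot be assigned without the strand setting. AT5G48050, annotated as a retrotransposon protein, fell in hac1hac5 from 14.5 and 19.2 normalized counts to 0 and 1.78 (adjusted p = 0.0014). AT5G42530, an uncharacterized gene near the marneral cluster, fell in both mutants (-1.67 and -1.28, adjusted p = 0.0027 and 0.015), and its med8med25 call was lost when the first (-1.30) or the second (-1.26) Col-0 library was left out.

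**Figure D4:**
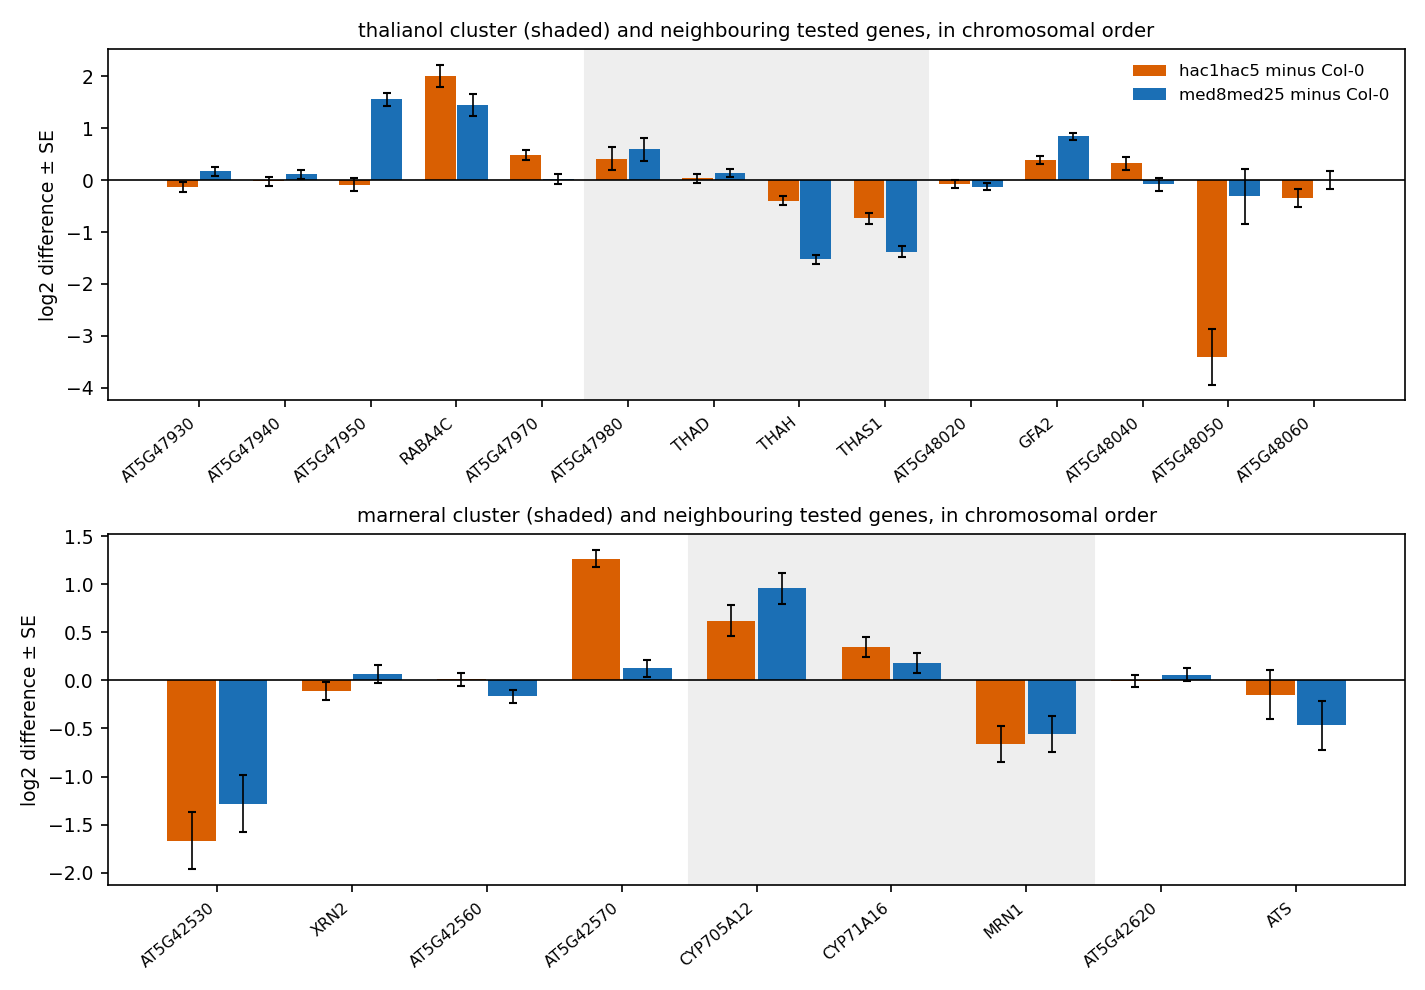
Log2 difference from Col-0 (y axis, ± SE of the fit) of the tested genes in chromosomal order (x axis, 1 position per gene, distances not to scale), with the cluster members shaded. In med8med25 the thalianol members stand in order at 0.59 (AT5G47980, not called), 0.14 (THAD, not called), -1.53 (THAH) and -1.38 (THAS1). The adjacent AT5G48020 stands at -0.12.

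Other genes of thalianol metabolism were not lower with THAS1. The list held AT5G47950, already described, and the oxidoreductase genes SDR4 (AT3G29250) and AT1G66800 of the NAD(P)-binding Rossmann-fold family, which lie on other chromosomes. None of the 3 was called in hac1hac5, and 2 rose in med8med25, where 38.4% and 26.6% of all tested genes were called. SDR4 rose from 444.0 and 635.3 normalized counts to 978.5 and 1011 in med8med25 (log2 difference 0.90, SE 0.15, adjusted p = 0.0032), and was called higher in hac1hac5 too when the first Col-0 library was left out (0.56) or with total-count scaling (0.49). AT1G66800 stood at 0.24 and 0.46 and was not called (adjusted p = 0.31 and 0.082). With total-count scaling AT1G66800 was called higher in med8med25 (0.62).

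Cyclase and P450 genes of other triterpene routes moved in both directions. Of 12 tested, 2 rose and 2 fell in hac1hac5 and 2 rose and 4 fell in med8med25. Over all tested genes 38.4% and 26.6% were called. LUP1, a lupeol synthase gene, had 1583 and 1636 normalized counts in the wild type and fell to 259.8 and 284.4 in hac1hac5 and to 416.2 and 550.4 in med8med25 (log2 differences -2.56 and -1.75, adjusted p = 4.5e-06 and 7.4e-05), with 18.1% of its exon bases shared with AT1G78980. CYP705A1, of the arabidiol route and the same P450 family as THAD and CYP705A12, rose in both (0.75 and 1.66, adjusted p = 0.0016 and 6.0e-05). Its neighbour PEN1, the arabidiol synthase gene, which was chosen after its values were seen, stood at -0.44 in hac1hac5 (adjusted p = 0.055) and rose in med8med25 (0.81, adjusted p = 0.0067), a call lost when the second Col-0 library was left out (0.73). The weakly expressed BARS1 fell in hac1hac5 (-1.85, adjusted p = 0.015; not called without the first Col-0 library, -1.47, or the second hac1hac5 library, -1.44). PEN3 was at 3.24 and 3.87 normalized counts in the wild type and 0 in both med8med25 libraries (adjusted p = 0.03). It was not called without either med8med25 library. PEN3 reached 1 normalized count only in the Col-0 libraries, so the filter kept it through Col-0 alone, which favours a lower call. Only 11 of the alternative settings tested it, and none of these left out a Col-0 library. With no filter PEN3 was still called. It is counted among the 4 genes that fell in med8med25.

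Genes that supply oxidosqualene were also counted. Of 20 genes from the mevalonate pathway to squalene epoxidase, 9 fell and 1 rose in hac1hac5, and 1 fell and 2 rose in med8med25. Over all tested genes 38.4% and 26.6% were called. Total-count scaling gave 4 lower and 4 higher in hac1hac5 and 1 lower and 7 higher in med8med25. Over all genes it called 37.3% and 30.4%. HMGS and MVD1, of the mevalonate pathway, fell in hac1hac5 (-0.62 and -0.51, adjusted p = 1.7e-04 and 7.0e-04). The squalene epoxidase gene SQE2 fell in both mutants (-0.70 and -1.07, adjusted p = 0.0056 and 0.0012), in hac1hac5 not without the first Col-0 library (-0.63) or the second hac1hac5 library (-0.58). SQP2 rose in med8med25 (0.66, adjusted p = 0.038), a call kept in 1 of the 6 settings that left out a library (0.39 to 0.93).

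Of 12 genes of sterol synthesis, which draws on the same oxidosqualene, 8 fell and 0 rose in hac1hac5, and 0 fell and 1 rose in med8med25. Over all tested genes 38.4% and 26.6% were called. SMT3, SMT2 and SMT1, methyltransferase genes, fell in hac1hac5 (-1.61, -0.70 and -0.64, adjusted p = 9.8e-05, 0.018 and 8.0e-04), as did DWF1 (-0.75, adjusted p = 9.4e-04). The SMT2 call was lost on leaving out any of the 4 libraries compared (-0.77 to -0.62). SMT1 rose in med8med25 (0.39, adjusted p = 0.014), but not when either Col-0 library was left out (0.39 and 0.40).

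Of 16 regulators of H3K27me3 and of the histone variant H2A.Z, 3 rose and 2 fell in hac1hac5 and 1 fell in med8med25. Once each library was scaled to its total, 5 of them rose and 0 fell in hac1hac5. The share of all tested genes that was called was 38.4% in hac1hac5, 37.3% there with that scaling, and 26.6% in med8med25. Nothing is therefore read from the counts of this list. HTA9, an H2A.Z gene, fell in both mutants (-0.27 and -0.47, adjusted p = 0.032 and 0.0039). TFL2, which encodes the H3K27me3-binding protein LHP1, and the methyltransferase gene SWN rose in hac1hac5 (0.34 and 0.31, adjusted p = 0.036 and 0.011), and MSI1 fell (-0.31, adjusted p = 0.018). None of these hac1hac5 calls held in every setting that left out a library, where values ran from -0.34 to -0.19 for HTA9, 0.24 to 0.43 for TFL2, 0.26 to 0.37 for SWN and -0.35 to -0.26 for MSI1, and HTA9 in med8med25 was not called without the first Col-0 library (-0.45). With total-count scaling HTA9 and MSI1 were not called in hac1hac5 (-0.08 and -0.13).

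**Figure D5:**
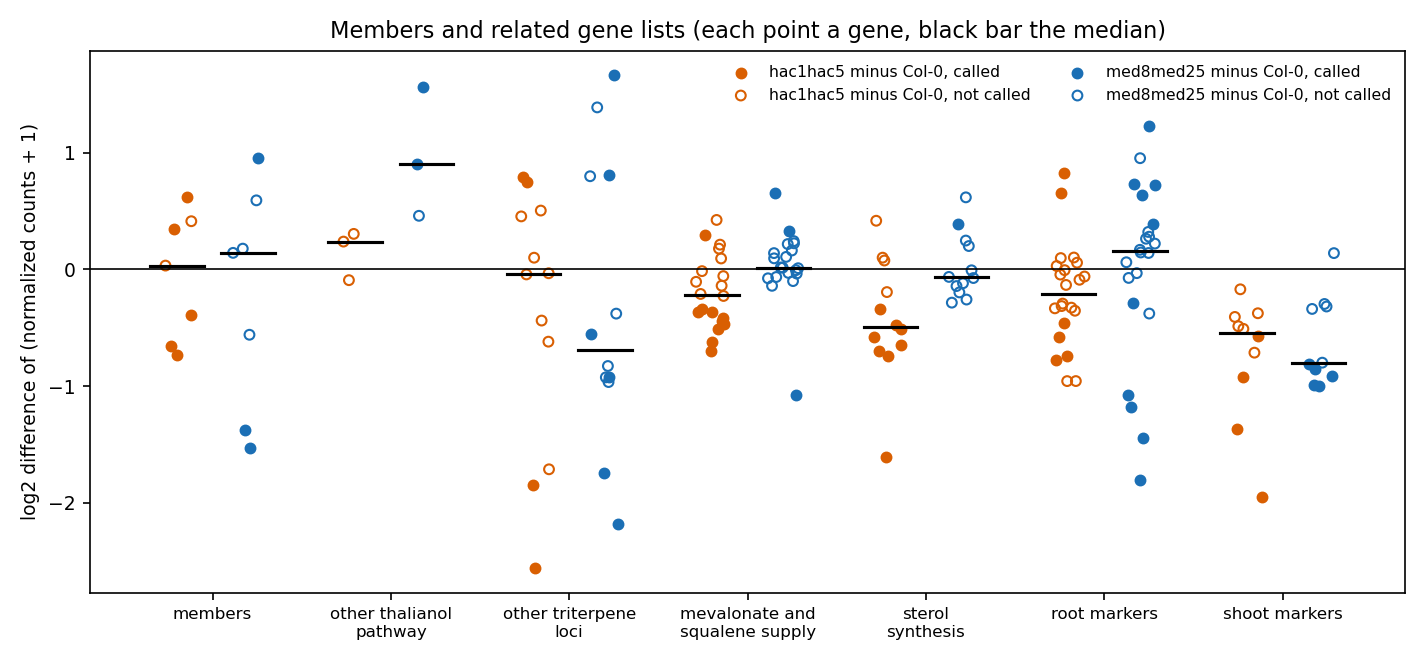
Log2 differences from Col-0 (y axis, on log2 of normalized counts + 1) of the 7 members and of the genes in 6 related lists (x axis); filled points were called at an adjusted p under 0.05, open points were not, and black bars are list medians. Members spread to both sides of 0 in each mutant, and 8 of 12 sterol genes are called below 0 in hac1hac5, against 21.0% of all tested genes.

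Some root and shoot markers differed between genotypes too. All 22 root markers were above 0 in every library, and their summed level was 66840 to 67010 normalized counts in the wild type, 50290 to 57650 with hac1hac5 and 35170 to 36550 with med8med25. Most of that sum came from the root beta-glucosidase gene PYK10, which fell in med8med25 (-1.18, adjusted p = 3.1e-04). In hac1hac5 PYK10 was not called (-0.33, adjusted p = 0.057), but was called lower in 5 of 14 alternative settings. Its values over these 14 settings ran from -0.44 to -0.15. By count, 2 of the 22 rose and 4 fell in hac1hac5, and 5 rose and 5 fell in med8med25, with median log2 differences of -0.21 and 0.16. Over all tested genes 38.4% and 26.6% were called, so nothing is read from these counts. Markers of 1 cell type did not move together in med8med25. Of the endodermis genes, CASP1, CASP2 and CASP4 rose (0.74, 0.64 and 1.23, adjusted p = 2.2e-04, 0.0038 and 6.6e-04), as did SCR (0.39, adjusted p = 0.017; not called without either Col-0 library, 0.37 and 0.41), while CASP5 stood at -0.38 (adjusted p = 0.24). ESB1, also of the endodermis, fell (-1.44, adjusted p = 0.038), with 84.3% of its exon bases shared with another gene, and was not called with limma voom (-1.50), with total-count scaling (-1.30) or without any 1 library of Col-0 or med8med25 (-1.65 to -1.24). The stem-cell niche gene WOX5 fell (-1.81, adjusted p = 0.013; not called without the second Col-0 library, -1.46), while PLT1 and PLT2 of the root tip stood at 0.17 and 0.06 (adjusted p = 0.83 and 0.93).

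Of the 10 shoot photosynthesis markers, 4 fell in hac1hac5 and 5 in med8med25, and none rose. Over all tested genes 21.0% and 14.3% were called lower. CA1 fell by 1.95 and 0.99 on the log2 scale (adjusted p = 9.8e-05 and 0.0059) and RBCS2B by 1.37 and 0.86 (adjusted p = 2.2e-04 and 0.0046), PSAD-1 by 0.92 and 0.91 (adjusted p = 0.0046 and 0.0076), and LHCA1 in med8med25 by 1.00 (adjusted p = 0.0046). Each of these 4 genes lost its med8med25 call when the second Col-0 library was left out (-0.93 for CA1, -0.81 for RBCS2B, -0.89 for PSAD-1 and -0.97 for LHCA1), PSAD-1 (-0.93) and LHCA1 (-1.03) also without the first, and PSAD-1 its hac1hac5 call without the second (-0.90). The part of root and shoot markers in the levels of the 7 genes was not tested.

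Among 18042 other genes with a mean of at least 50 normalized counts, those most like the mean standardized profile of the thalianol genes over 6 libraries were AT5G43155, AT5G46850, AT2G31290, NAC046 and AT1G68230 (Pearson r 0.956 to 0.938). For the marneral genes they were AT4G13630, AT3G53970, AT4G17360, AT2G07777 and HMGB6 (r 0.945 to 0.906). The mean profiles stood for the members unevenly, since the members' own correlations with them ran from 0.0057 for AT5G47980 to 0.521 for THAH, and from 0.081 for MRN1 to 0.773 for CYP71A16. In each of the similar genes the 2 libraries of a genotype lay furthest apart in Col-0. AT5G43155 averaged 66.41, 67.88 and 62.65 normalized counts in Col-0, hac1hac5 and med8med25, with Col-0 libraries at 60.26 and 72.55. AT4G13630 averaged 697.8, 720.9 and 731.8, with Col-0 libraries at 657.1 and 738.5. None of the genes listed for the thalianol cluster fell as far as THAS1 or THAH. The correlations describe 6 libraries that share 3 genotypes and a depth correction.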

How the data were processed

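The authors deposited a table of 32548 gene IDs in 6 libraries as a normalized signal, not whole reads. Per the submitters' processing notes HISAT2, featureCounts and edgeR were used with TAIR10, and their versions, the annotation and the strand setting are not given in the sources used here. Reads per library were estimated by inverting a negative-binomial quantile adjustment (dispersion 0.007), after which 96.2% to 99.9% of values of genes with means of 15 to 60 lay within 0.1 of a whole read. Libraries were single-end reads of 50 bases from total RNA. No molecular identifiers are named, so depth describes counting error alone.

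Values were analysed as log2(normalized count + 1) with limma 3.58.1 in R 4.3.3 (limma-trend, genotype as the only term, all 6 libraries, 3 residual and 5.28 prior degrees of freedom), over the 23898 genes that reached 1 normalized count in 2 or more libraries. Adjusted p-values are Benjamini-Hochberg, two-sided, over all tested genes, from limma wherever one is printed, and a gene was called under 0.05. Differences on this scale understate those of weakly expressed genes. The SE comes from that fit.

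Genes were named by rule: all 7 members, and in each other list up to 4 called genes with the largest log2 difference from Col-0, and the genes of most similar profile. AT1G66800, AT5G48020, AT5G42620, AT5G42570, AT5G47970, GFA2, PEN1 and the root markers beyond the rule were added after their values were seen. The members and lists were chosen with earlier results of these data known. Of 102 list entries, 86 matched the RefSeq table in both ID and symbol and 16 in ID only. Levels per kb use exon lengths of RefSeq TAIR10.1, whose positions are its own and may differ from the annotation behind the table. Alternatives were other pseudocounts, filters, scalings, limma voom, a replicate block and leaving out each library. Python 3.11.15, numpy 2.4.6, pandas 2.3.3 and matplotlib 3.10.9 were used.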

Additional observations from a re-analysis of the deposited data

How the results depend on the processing

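With 2 libraries a genotype, calls near the threshold depend on single libraries. Leaving out each library in turn gave 5203 to 10667 genes called in hac1hac5 against Col-0 (5588 with the first Col-0 library left out, 5203 with the second) and 2559 to 6877 in med8med25 (2706 and 2559 in these settings). In these settings the marneral median between med8med25 and hac1hac5 ran from -0.0721 to 0.27. A genotype left with 1 library is assumed to vary like the others. Total-count scaling gave 3 members called in hac1hac5 (37.3% of all genes tested under it) and 5 in med8med25 (30.4%), with thalianol medians of 0.0008 and -0.46 and marneral medians of 0.53 and 0.34. The medians moved by about the shift of all genes. No called member changed sign under any of the 14 alternatives. Same-numbered libraries did not deviate together (correlations of -0.0254, -0.121 and -0.226 over 18948 genes). With 2 libraries a genotype this cannot exclude a shared batch, and the labels name none. The replicate block gave 8234, 5357 and 9004 genes called (hac1hac5 and med8med25 against Col-0, and med8med25 against hac1hac5), with 5, 4 and 2 members. AT5G47980 was then called in med8med25 (0.59) and HAC5 in hac1hac5, while HTA9 in hac1hac5 and ESB1 and PHO1 in med8med25 were not. A crossed block with the med8med25 numbers swapped, chosen after seeing the data, gave 9361, 6732 and 10176. Of 2700 gene values under an alternative, members included, 114 lost and 48 gained a call, and 64 had the other sign, none of them called there or in the reported fit. AT5G47980 rests on the fewest reads.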
